A study of Homo sapiens with 6 samples.

Results

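The TAM receptor kinases TYRO3, AXL and MERTK and their ligands GAS6 and PROS1 were examined in OCI-AML3, a human cell line from acute myeloid leukaemia whose mutant NPM1 allele encodes a cytoplasmic nucleophosmin, NPM1c. The 5 genes were taken by symbol from a table of 28307 genes keyed by Entrez identifiers, and all 5 were present. One group had been transfected with control siRNA (siControl) and the other with siRNA directed at NPM1c (siNPM1c), in both cases at 10 nM with a lipid reagent, and RNA was taken on day 3. Each group held 3 libraries, all with the same batch label and the genotype entry WT. Nothing states that the replicates were separate cultures, so errors and p-values cover only differences among libraries, possibly technical ones. The family was chosen by its biology and selected on the siNPM1c against siControl values, AXL above all, which were in view. Its fold changes are therefore given as a description, with SE and without p-values.

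TYRO3, AXL and MERTK are receptor tyrosine kinases with immunoglobulin-like and fibronectin type III domains outside the cell. GAS6 and PROS1 (protein S, better known as an anticoagulant) bridge them to phosphatidylserine on dying cells, which the ligands hold through a domain of vitamin K-dependent carboxylated glutamates. In macrophages and dendritic cells the receptors drive uptake of apoptotic cells and dampen interferon and cytokine signalling, and in acute myeloid leukaemia AXL and MERTK have been studied as drug targets.

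AXL was the member that differed most. Its transcripts were 7.01-fold higher in the siNPM1c libraries, from 1.15 ± 0.311 to 7.91 ± 0.892 CPM (CPM, counts scaled to the TMM-normalised library size, SD, n = 3). MERTK, TYRO3 and GAS6 had overlapping groups, and PROS1 was lower without overlap but by a smaller factor (1.42-fold). Of the 5 members, 1 (AXL) had an adjusted p under 0.05 in the fit across all genes, where 42.7% of the 12938 genes tested did so in either direction and 21.3% in the upward direction. Groups did not overlap for 2 members (AXL and PROS1), where 49.2% of the genes tested had groups that do not overlap. These shares are background only, since the family was picked with this comparison known.

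The starts of AXL and GAS6 are shown because AXL is the member with the large difference and GAS6 is the ligand with the highest affinity for it. Each sequence is the 250 bases before a RefSeq transcript start (GRCh38.p14), 5′ to 3′ on the strand of the gene, and RefSeq lists 2 starts for AXL in this table. Capitals mark matches on either strand to GGGCGG, the GC box read by SP1-type factors, or to GAAA, any 2 bases and GAAA again, a core read by interferon regulatory factors. The third motif searched, TGANTCA of AP-1 (JUN and FOS proteins), is not in these 3 windows.
AXL, first start (chr19:41218973-41219222, strand +): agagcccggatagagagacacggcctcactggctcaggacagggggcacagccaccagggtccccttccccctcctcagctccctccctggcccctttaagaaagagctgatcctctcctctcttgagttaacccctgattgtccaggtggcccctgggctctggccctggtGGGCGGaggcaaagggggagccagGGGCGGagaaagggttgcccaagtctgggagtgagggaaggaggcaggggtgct
AXL, second start (chr19:41226505-41226754, strand +): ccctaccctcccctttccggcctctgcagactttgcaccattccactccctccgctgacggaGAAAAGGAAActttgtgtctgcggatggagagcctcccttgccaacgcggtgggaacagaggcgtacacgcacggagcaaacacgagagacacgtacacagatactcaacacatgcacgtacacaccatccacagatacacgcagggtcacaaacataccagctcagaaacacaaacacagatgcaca
GAS6 (chr13:113864077-113864326, strand -): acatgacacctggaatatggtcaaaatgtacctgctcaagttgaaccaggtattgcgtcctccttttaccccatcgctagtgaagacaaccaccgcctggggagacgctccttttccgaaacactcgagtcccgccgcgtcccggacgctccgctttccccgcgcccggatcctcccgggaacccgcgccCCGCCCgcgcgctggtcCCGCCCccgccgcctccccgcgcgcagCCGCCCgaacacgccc
The window at the first AXL start held 2 matches to GGGCGG, the one at the second AXL start held 0 of these and 1 to the GAAA pair, and the GAS6 window held 3 to GGGCGG. Over 35116 windows of the same length, GGGCGG was in 42.6%, TGANTCA in 6.57% and the GAAA pair in 3.02%. The windows of the other members held 4 matches to GGGCGG for MERTK, 2 for PROS1, and 3 with 1 to TGANTCA at the first of 2 TYRO3 starts. These are letter matches in short windows, and gene counts do not tell from which start AXL was transcribed.

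Libraries held 15075235 to 25190122 counts in all. Ribosomal RNA genes took 63.0% to 64.5% of them in the siControl libraries and 69.4% to 71.1% in the siNPM1c libraries, and protein-coding genes took at least 28.1% and at most 22.3%. The members together had 300 to 549 counts per library. By the scaled library sizes, a single count was worth 0.0362 to 0.0752 CPM. The gene of the target, NPM1 (chromosome 5, 171387116 to 171410900), had 922, 1366 and 922 counts in siControl and 293, 500 and 350 counts in siNPM1c, a log2 fold change of -1.10 ± 0.05 (SE). Gene counts do not separate RNA of the mutant allele from other NPM1 RNA, so the loss of NPM1c itself was not measured. Myeloid markers were present in part. In siControl libraries CEBPA had 217 ± 3.34 CPM, SPI1 79.6 ± 1.65 and CD33 9.04 ± 0.555. Other markers of the same list were low or nearly absent there, with MPO at 0.732 ± 0.428 CPM, CD34 at 0.558 ± 0.113 and KIT at 0.0544 ± 0.0539. Among 12 markers of other cell types, the T-cell gene CD3D, the erythroid gene HBB and the platelet gene PF4 had no count in any library. PECAM1, also in that list, was well expressed. The 12 summed to 44.7 to 45.5 CPM in siControl and 49.7 to 58.8 CPM in siNPM1c. Without PECAM1 the sums were 1.67 to 2.56 and 1.43 to 3.26 CPM.

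AXL (Entrez gene 558, chromosome 19, 41219223 to 41261766 in RefSeq on GRCh38.p14) encodes the receptor for which GAS6 is the principal ligand. Its raw counts were 18, 26 and 28 in siControl replicates 1 to 3 and 94, 163 and 131 in siNPM1c replicates 1 to 3. On the scaled level these were 1.00, 0.942 and 1.51 CPM against 7.07, 7.81 and 8.85 CPM. Every siNPM1c library lay far above every siControl library, and the gap between the groups was wider than the spread within either. The groups summed to 72 counts (95% exact Poisson interval 56.3 to 90.7) and 388 counts (350.3 to 429), intervals that cover counting error only. The log2 fold change was 2.81 ± 0.18 (SE), which placed AXL in position 7 from the top among the 12938 genes tested. AXL passed the filter on low counts in all 6 libraries, so it was not kept through its siNPM1c values alone.

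Directions here are relative to TMM scaling. With library sizes alone, so that ribosomal RNA enters the depth in full, the median log2 fold change of all genes went from -0.01 to -0.48 and AXL was still higher, by 2.34 ± 0.18 log2 (SE). HNRNPUL1, the next gene downstream of AXL on the same strand, was much more abundant (67.5 ± 2.05 CPM in siControl, 63.7 ± 1.13 CPM in siNPM1c) and had a log2 fold change of -0.08 ± 0.04. Of the genes next to the other members, ANAPC1 beside MERTK had -0.67 ± 0.07, RPAP1 beside TYRO3 0.15 ± 0.06 and TMEM255B beside GAS6 0.61 ± 0.28 (log2 fold change, SE).

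MERTK (gene 10461, chromosome 2, 111898607 to 112029561), the receptor that marks phagocytic macrophages, was at the edge of detection. It had 18, 30 and 19 counts in siControl and 9, 18 and 17 counts in siNPM1c, or 1.00, 1.09 and 1.02 CPM against 0.677, 0.862 and 1.15 CPM. The highest siNPM1c library exceeded all siControl libraries and the others lay below them. The log2 fold change of -0.21 ± 0.31 (SE) rests on 67 counts in siControl (51.9 to 85.1) and 44 in siNPM1c (at most 59.1). At this depth even a difference somewhat larger than that SE would not have been detected. MERTK passed the filter in 3 siControl and 2 siNPM1c libraries.

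TYRO3 (gene 7301, chromosome 15, 41559212 to 41583589), best known from the nervous system and platelets, had 4.78, 5.40 and 3.93 CPM in siControl and 4.44, 4.84 and 3.24 CPM in siNPM1c. Replicate 3 was the lowest in each group and the groups overlapped. The log2 fold change was -0.17 ± 0.15 (SE), on 308 and 208 counts. Its pseudogene TYRO3P is a separate entry of the table with 1.83 ± 0.167 and 1.51 ± 0.200 CPM (SD, n = 3), and since the treatment of reads that fit both was not given, counts of the pair may be divided between them.

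GAS6 (gene 2621, chromosome 13, 113820549 to 113864076), the ligand that binds all 3 receptors, was the member with the most counts. The siControl libraries gave 8.67, 10.6 and 7.86 CPM and the siNPM1c libraries 9.33, 9.10 and 8.85 CPM. The siNPM1c values all lay inside the siControl range, and the log2 fold change was -0.02 ± 0.10 (SE). GAS6-AS1, which overlaps GAS6 on the opposite strand, had 3.38 ± 0.271 and 2.80 ± 0.149 CPM. Strand handling in the counting was not given, so reads of the pair cannot be told apart.

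PROS1 (gene 5627, chromosome 3, 93873051 to 93973896), which acts through TYRO3 and MERTK and not through AXL, was low in all libraries. It had 26, 52 and 34 counts in siControl and 14, 25 and 21 in siNPM1c, or 1.45, 1.88 and 1.83 CPM against 1.05, 1.20 and 1.42 CPM. All siNPM1c libraries were below all siControl libraries, as in 24.9% of the genes tested, by a gap as small as that between 1.42 and 1.45 CPM. The log2 fold change was -0.50 ± 0.26 (SE), and -0.30 ± 0.26 after a correction for GC content, which is low in PROS1 transcripts (40.3%) and high in those of AXL (59.4%) and GAS6 (61.9%).

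**Figure D1:**
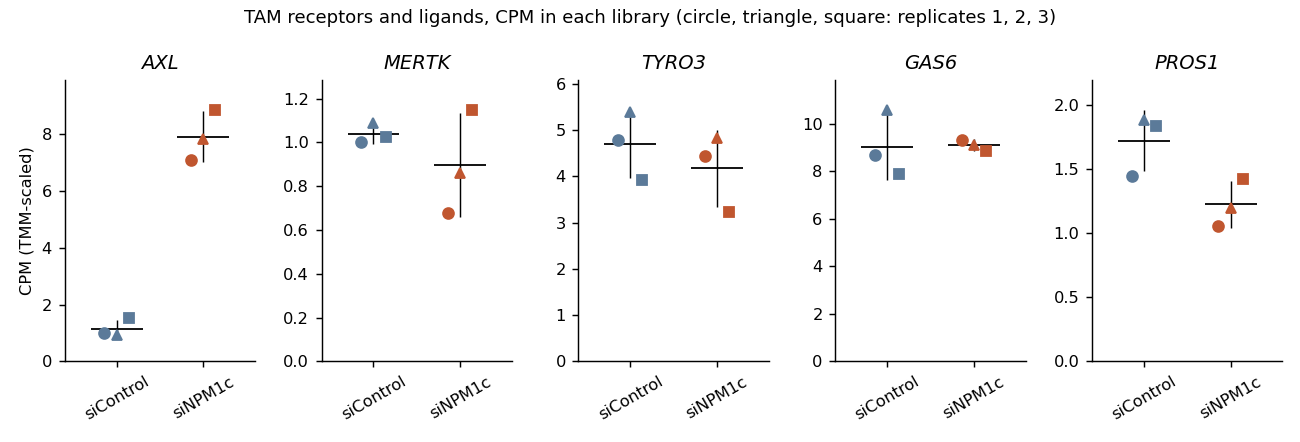
Level of each TAM receptor and ligand in every library, in CPM on linear axes that start at 0 and differ between panels. Points are libraries, horizontal lines group means and vertical lines ± SD (n = 3). AXL separates at 0.942 to 1.51 against 7.07 to 8.85 CPM, while the groups overlap for MERTK, TYRO3 and GAS6.

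The other 4 members shifted together with the scaling, as shown by the plot of fold changes by processing setting. With library sizes alone their log2 fold changes were -0.68 for MERTK, -0.64 for TYRO3, -0.49 for GAS6 and -0.97 for PROS1, against -0.48 for the median of all genes. AXL ranged from 2.65 to 3.03 when each library was left out in turn, and GAS6 from -0.10 to 0.14.

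**Figure D2:**
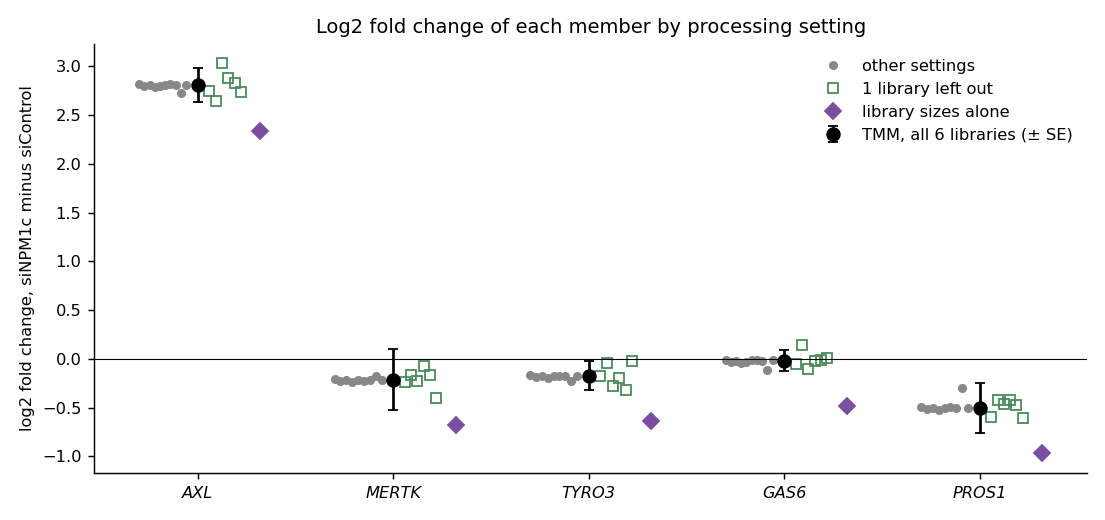
Log2 fold change of the 5 members (siNPM1c minus siControl) under each processing setting. Black points are TMM scaling with all libraries (± SE), grey points other settings, green squares fits without 1 library and purple diamonds library sizes alone, which lower every member by about the shift of the median gene. AXL lies between 2.34 and 3.03 throughout, but the filter of 5 CPM in 3 libraries kept it through its siNPM1c libraries alone.

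To put the members in order of level, CPM was divided by transcript length in kilobases. With the median length over coding GENCODE 29 transcripts, a length chosen after the data had been seen, the order in siControl was GAS6 (3.63 CPM per kb), TYRO3 (1.21), PROS1 (0.540), AXL (0.359) and MERTK (0.325). In siNPM1c it was GAS6 (3.65), AXL (2.47), TYRO3 (1.08), PROS1 (0.384) and MERTK (0.281). AXL thereby went from near the bottom of the family to above TYRO3. AXL made up 19.1% ± 6.12 (SD, n = 3) of the summed receptor level per kb in siControl and 64.4% ± 4.63 in siNPM1c, TYRO3 63.7% ± 6.65 and 28.3% ± 6.19, and MERTK 17.2% ± 0.537 and 7.30% ± 1.62. With the longest transcript the AXL shares were 22.6% ± 6.63 and 69.3% ± 3.33. With the median over all transcripts, where short TYRO3 transcripts bring its length to 856 bases, they were 7.39% ± 2.91 and 37.8% ± 6.64, and TYRO3 (4.87 CPM per kb) stayed above AXL (3.09) in siNPM1c.

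Next the family was set beside the other receptor tyrosine kinases. Of 55 others, 23 were tested, 5 were higher and 6 lower at an adjusted p under 0.05 (edgeR), with a median log2 fold change of -0.02. The called share was 47.8% of these 23, against 42.7% over all genes. With library sizes alone 4 were higher and 15 lower. For all 12938 genes, that setting gave 505 upward and 9253 downward calls. In the order of log2 fold changes over the 26 tested kinases, AXL stood in position 2, TYRO3 in 14 and MERTK in 18. ROR2, a WNT receptor that stood above AXL and is named after its values were seen, had only 12 counts in the siControl group and 89 in the siNPM1c group. ROR2 passed the filter on low counts in 0 siControl and 3 siNPM1c libraries, so it entered this order through siNPM1c alone. CSF1R, the receptor of macrophage colony-stimulating factor, rose from 4.76 ± 0.114 to 19.5 ± 1.43 CPM (log2 fold change 2.03 ± 0.10, SE, adjusted p = 3.56e-52). The VEGF receptor gene FLT1 rose by 0.87 ± 0.12 log2 (adjusted p = 4.88e-10) and the kinase gene LMTK3 by 0.79 ± 0.15 (adjusted p = 1.57e-06). LTK, named to complete the count, rose by 0.62 ± 0.20, a call lost with library sizes alone, with DESeq2 and without siNPM1c replicate 2. Among the kinases that fell, the pseudokinase gene PTK7 changed by -1.26 ± 0.12 log2, the collagen receptor gene DDR2 by -1.17 ± 0.21 and the ephrin receptor gene EPHB3 by -1.01 ± 0.09.

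**Figure D3:**
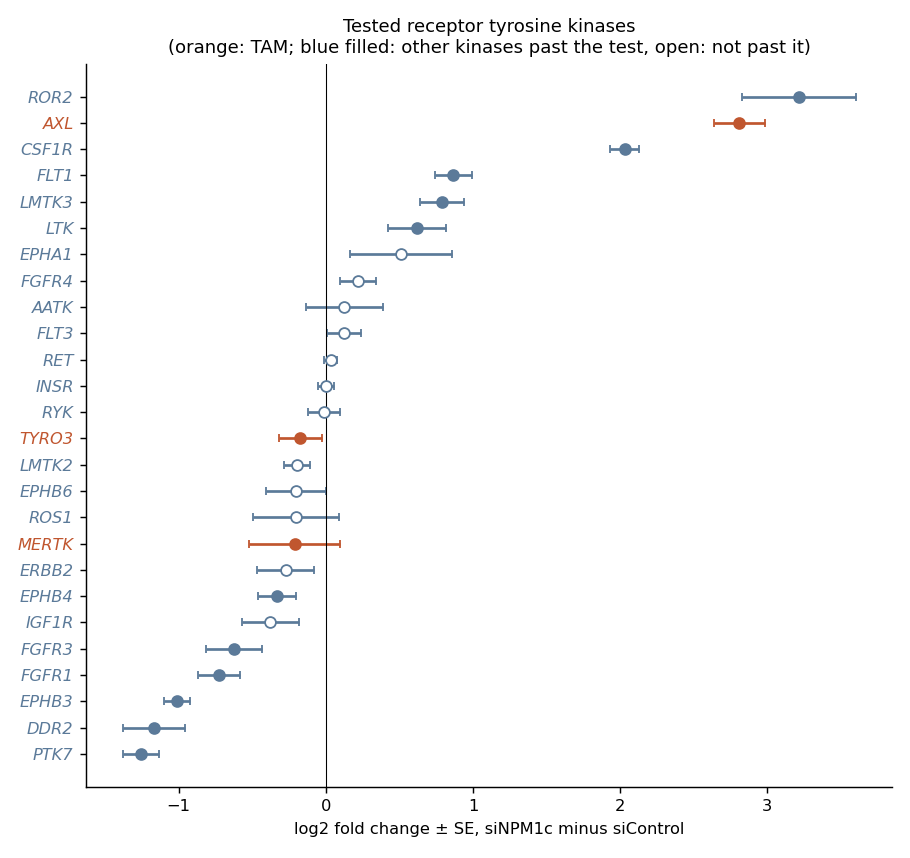
Log2 fold change ± SE (siNPM1c minus siControl, TMM scaling) of the 26 receptor tyrosine kinases tested, in order. AXL (orange) is in position 2 between ROR2 and CSF1R, and TYRO3 and MERTK are among kinases with values near 0; for the TAM genes no test is drawn.

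Genes that act around the receptors were followed in 11 lists with 137 genes, of which 107 were tested, 41 rose and 24 fell (60.7% called, against 42.7% of all genes), with a median log2 fold change of 0.05. With library sizes alone 8 rose and 76 fell, where 505 of the 12938 genes tested rose and 9253 fell. The counts with library sizes alone given below for single lists have that general shift as their background. The lists were written with earlier results of these data known, so these counts are a description.

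Of the other reported ligands, 2 were tested and neither passed. LGALS3 (galectin-3) had 0.22 ± 0.12 log2 (SE) and TUB had -0.09 ± 0.12. In the list of ligand carboxylation and maturation, 2 of 7 tested genes rose and 2 fell (0 and 6 with library sizes alone). GGCX, the vitamin K-dependent carboxylase that completes GAS6 and PROS1, fell from 13.3 ± 0.710 to 10.0 ± 0.777 CPM (log2 fold change -0.40 ± 0.09, adjusted p = 8.50e-05). CALU, an inhibitor of that carboxylase, fell by 0.61 log2 (SE 0.10). AIFM2, which can reduce vitamin K, rose by 0.56 ± 0.13 log2, a call lost without siNPM1c replicate 2 (adjusted p = 0.0549) and with library sizes alone (adjusted p = 0.572). FURIN, a proprotein convertase, rose by 0.16 ± 0.06 and turned to -0.31 with library sizes alone, and its call was also lost with DESeq2 (adjusted p = 0.125), the GC correction (0.366), no filter on low counts (0.0675) and without siControl replicate 2, siControl replicate 3 or siNPM1c replicate 2 (adjusted p of 0.0576, 0.0673 and 0.0986). VKORC1, the vitamin K epoxide reductase gene, had 0.05 ± 0.06 and did not pass. Of the other proteins with a Gla domain, 10 of 12 were not tested for low counts, and PRRG4 rose by 0.82 ± 0.25 log2, a call lost with library sizes alone (adjusted p = 0.196).

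Ectodomain shedding releases soluble AXL and MERTK. Here 1 of 6 tested genes rose and 4 fell (0 and 5 with library sizes alone). ADAM10, a sheddase of AXL, fell from 22.8 ± 1.48 to 15.8 ± 0.701 CPM (log2 fold change -0.54 ± 0.07, adjusted p = 1.90e-11), while ADAM17, the sheddase of MERTK, had 0.01 ± 0.10 log2 and did not pass. The metalloproteinase inhibitor gene TIMP3 fell by 0.30 log2 (SE 0.02), TIMP1 by 0.17 (SE 0.05) and the rhomboid pseudoprotease gene RHBDF1 by 0.49 (SE 0.13). RHBDF2, the partner that carries ADAM17 to the surface, rose by 0.40 ± 0.05 and had -0.07 with library sizes alone.

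Among genes of signalling below the receptors, 9 of 23 tested rose and 6 fell, which became 0 and 18 with library sizes alone. The adaptor gene GRB2 rose from 331 ± 5.27 to 414 ± 4.13 CPM (0.32 ± 0.02 log2, and -0.15 with library sizes alone), PIK3CD, a leukocyte PI3-kinase subunit, by 0.32 ± 0.03 (-0.15) and the kinase gene SRC by 0.42 ± 0.05 (-0.04). In the list of the brake on interferon and cytokine signalling, 5 of 7 tested genes rose and 1 fell, with a median of 0.41, which became 3 and 3 with library sizes alone, with a median of -0.06. SOCS3, a feedback inhibitor of cytokine receptors that TAM signalling induces, rose from 5.57 ± 0.667 to 11.5 ± 0.146 CPM (1.06 ± 0.11, adjusted p = 2.02e-17), and SOCS1 by 0.82 ± 0.17 (adjusted p = 9.62e-06). IFNAR2, a chain of the interferon receptor, rose by 0.41 ± 0.05 (-0.06 with library sizes alone) and NFKBIA by 0.25 ± 0.07 (-0.21). The other chain, IFNAR1, had -0.15 ± 0.06 and fell at an adjusted p of 0.0404, a call lost with DESeq2, limma-voom and the GC correction (adjusted p of 0.200, 0.0534 and 0.389) and without siControl replicate 1 (0.128), siControl replicate 2 (0.197), siNPM1c replicate 2 (0.0791) or siNPM1c replicate 3 (0.211). TWIST1, a reported target of AXL, had 0.17 ± 0.10 and did not pass.

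In the engulfment machinery 4 of 13 tested genes rose and 2 fell (0 and 12 with library sizes alone). The lipid transporter gene ABCA1 rose from 91.3 ± 0.750 to 119 ± 2.64 CPM (0.38 ± 0.03 log2, and -0.09 with library sizes alone), and ELMO1, a scaffold of Rac activation, by 0.57 ± 0.16, a call lost with library sizes alone. ABCA7 rose by 0.13 ± 0.03 and RHOG by 0.17 ± 0.04, which turned to -0.34 and -0.30 with library sizes alone and lost their calls with the GC correction (adjusted p of 0.509 and 0.0861). The GTPase gene CDC42 fell by 0.64 (SE 0.06) and the receptor gene LRP1 by 0.22 (SE 0.04). Of the other receptors and bridges for dying cells, 6 of 18 tested rose and 3 fell (1 and 10 with library sizes alone). The lipopolysaccharide co-receptor gene CD14 rose by 0.82 ± 0.11, TREM2, a lipid receptor of macrophages, by 0.52 ± 0.11 (call lost with library sizes alone) and the bridging protein gene THBS1 by 0.46 ± 0.04 (-0.00 with library sizes alone). The decreases were those of CD300LF (-0.57 ± 0.12), SCARB1 (-0.20 ± 0.06) and the integrin gene ITGAV (-0.32 ± 0.14, adjusted p = 0.0446), whose call was lost on leaving out any of the 6 libraries (adjusted p of 0.0577 to 0.166) and with no filter, DESeq2 or the GC correction (0.0526, 0.200 and 0.724).

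Phosphatidylserine, which the TAM ligands read, is kept inside the membrane by flippases. TMEM30A, the shared flippase subunit, fell from 30.1 ± 1.04 to 19.3 ± 1.04 CPM (-0.64 ± 0.06 log2, adjusted p = 1.38e-18) and the scramblase gene ANO6 by 0.53 (SE 0.08), while PLSCR1, an interferon-induced gene, rose by 0.65 ± 0.09, a call lost with library sizes alone (adjusted p = 0.0668). The other 4 of 7 tested did not pass (0 rose and 6 fell with library sizes alone). XKR8, the scramblase of apoptotic cells, had -0.30 ± 0.16. Among signals that invite or stop engulfment, 4 of 6 tested rose and 1 fell (0 and 3 with library sizes alone). CD47, the signal that holds phagocytes off through SIRPA, fell from 4.47 ± 0.464 to 2.10 ± 0.328 CPM (-1.05 ± 0.18 log2, adjusted p = 8.84e-08). Calreticulin (CALR) rose by 0.34 ± 0.03 and SIRPA by 0.18 ± 0.04, which turned to -0.13 and -0.29 with library sizes alone, and B2M rose by 0.53 ± 0.04 and LILRB1 by 0.61 ± 0.16, calls lost there.

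Of the reported regulators of AXL and MERTK transcription, 8 of 16 tested rose and 3 fell, with a median of 0.09 (4 and 11 with library sizes alone). The AP-1 genes FOSL2 (0.58 ± 0.03, adjusted p = 8.79e-56) and JUN (0.68 ± 0.04, adjusted p = 4.38e-42) rose, and kept their direction and call with library sizes alone (0.11 and 0.21). SP1, the factor of the GC box shown above, fell by 0.31 (SE 0.06), NR1H3, the liver X receptor alpha gene, by 0.39 (SE 0.08) and HIF1A by 0.57 (SE 0.12).

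**Figure D4:**
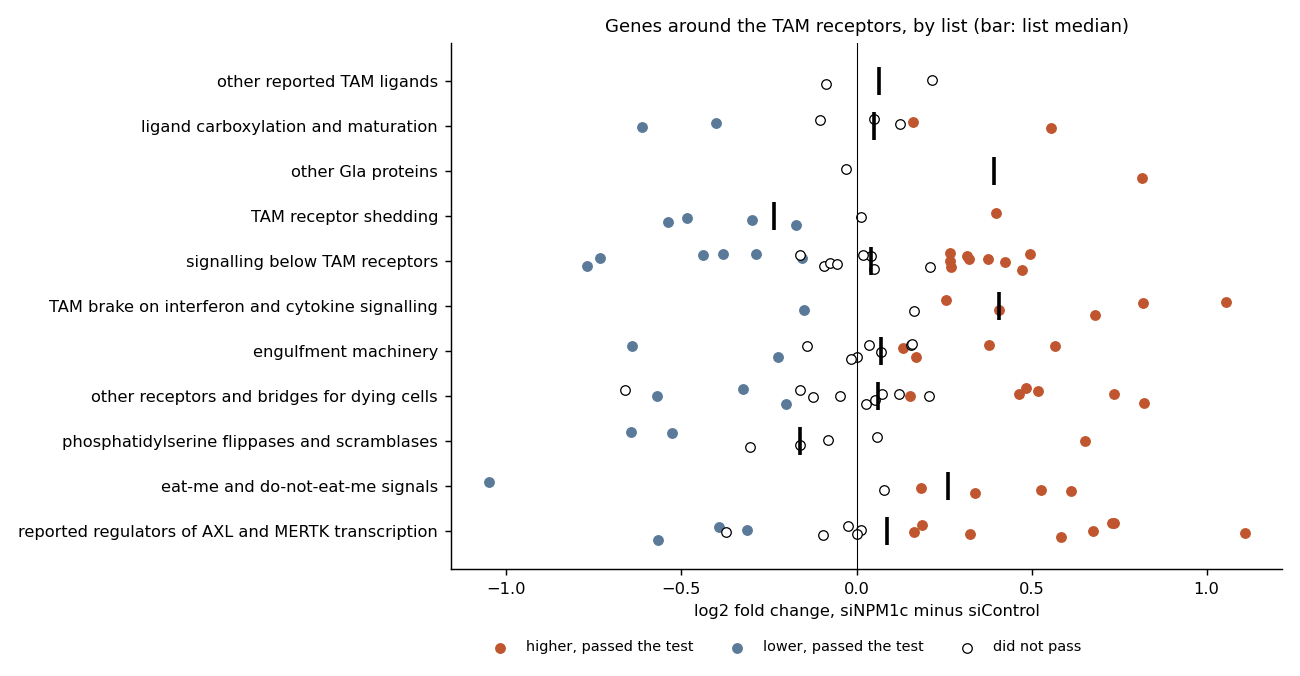
Log2 fold change (siNPM1c minus siControl, TMM scaling) of each tested gene in the 11 lists around the TAM receptors. Orange and blue points passed the test upward and downward, open points did not, and bars are list medians, of which the highest (0.41) is that of the brake on interferon and cytokine signalling.

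Of 12 macrophage markers, 9 were tested, 6 rose (CSF1R, CD14, CD68, FCGR1A, MARCO and CD163) and 1, ADGRE1, fell (log2 fold change -0.77 ± 0.22, SE). This was 77.8% called, against 42.7% of all genes tested. VSIG4 (-0.35 ± 0.15) and C1QA (-0.66 ± 0.29) did not pass. With library sizes alone 3 rose and 3 fell, and CD68, FCGR1A and CD163 lost their calls. That of CD163 was also lost with DESeq2 and without siControl replicate 1 or siNPM1c replicate 2. The summed level of the 12 markers was 75.6 to 80.2 CPM in the siControl and 117 to 125 CPM in the siNPM1c libraries. Of 10 myeloid blast markers, 8 were tested, 5 rose (LYZ, SPI1, CEBPA, ANPEP and MPO) and 0 fell (62.5% called), or 3 and 4 with library sizes alone. CD34 (0.558 ± 0.113 CPM in siControl, 0.662 ± 0.129 in siNPM1c) and KIT (0 to 2 counts per library) were not tested for low counts. The sum of the 10 markers was 512 to 519.9 CPM in siControl and 920.5 to 932 CPM in siNPM1c. Most of the difference was that of the lysozyme gene LYZ (80.2 ± 0.805 and 401 ± 8.35 CPM, SD, n = 3). Without LYZ the sums were 433 to 439 and 524 to 529 CPM. MRC1 and FCGR3A, both defining markers of macrophage subsets, had at most 4 counts in any library. In bulk RNA a larger share of cells with AXL and more AXL RNA per cell cannot be told apart, and the part of these marker genes in the AXL difference was not tested.

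By pattern over the 6 libraries, the genes most like AXL by Pearson's r of log2 CPM were MIR663A, ARHGAP26 and IL10RA (the interleukin-10 receptor chain), each with r of 0.999. Their own differences were much smaller, with log2 fold changes of 0.49 ± 0.02, 0.51 ± 0.04 and 0.70 ± 0.08 (SE). MIR663A had a very high level, 4658 ± 169 CPM in siControl and 6524 ± 143 CPM in siNPM1c (SD), and the origin of its reads was not tested. Of 11633 genes compared, 1627 had r above 0.9 with AXL. The genes most like PROS1 were LINC01451, SEC22C and DERL1 (r of 0.99 each), and 346 genes had r above 0.9. For GAS6 they were PRPF40B, COPRS and PHLDB3 (0.98, 0.98 and 0.96), for MERTK SBDS, BAMBI and UBAP1L (0.99, 0.98 and 0.98) and for TYRO3 LITAF, CLK1 and ZNF750 (0.97 each). These values describe 6 libraries that share the group difference and carry no p-value.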

How the data were processed

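RNA sequencing of total RNA from OCI-AML3 cells gave 3 siControl and 3 siNPM1c libraries. The authors deposited gene-level counts as integers in 1 table, not normalised. Tools listed in the submitters' processing notes, without roles, are STAR 2.7.5a, cutadapt 2.6, DESeq2 1.34.0 and CASAVA 1.8. The listed builds are mm10 and hg38. The counting tool, annotation and strand setting are not given in the sources used here. Columns were matched to samples through the descriptions in the labels. RefSeq (GRCh38.p14) gave a symbol for 28261 of 28307 genes.

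The members and lists were chosen with earlier results of these data known. Counts were fitted in R 4.3.3 with edgeR 4.0.16 (filterByExpr at a minimum count of 10, TMM, robust quasi-likelihood F test, two-sided). Benjamini-Hochberg adjustment ran over 12938 genes, and genes were called at 0.05. The method was also run on simulated counts in which few genes changed, equally in both directions. That simulation had no shift in composition between groups, so it does not check the scaling or the number of calls in these data. SE is the absolute log2 fold change over the square root of F. Totals of 15075235 to 25190122 counts set the precision, and the common biological coefficient of variation was 2.17%. Pairs of libraries of 1 group differed by a chi-square of 1.46 to 2.36 per degree of freedom, so none was counted as a copy. Pearson's r used log2 CPM with a prior count of 2.

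Named genes were the members, NPM1, up to 3 called genes of each list by smallest p, the 6 called other kinases with the largest change and a mean of at least 1 CPM, the 3 genes most like each member, and neighbouring genes. Further genes that complete a count, represent a list or did not pass were chosen after their values were seen. Some genes that the rule names are not reported here. Alternatives were DESeq2 size factors, upper-quartile factors, library sizes alone, leaving out structural RNA genes, other filters, DESeq2 1.42.0, limma-voom (limma 3.58.1), robust = FALSE, a GC correction (lowess, span 0.3), the replicate block and leaving out each library.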

Additional observations from a re-analysis of the deposited data

How the results depend on the processing

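Depth limits MERTK and PROS1, with 9 to 52 counts per library, and also the siControl level of AXL, with 18 to 28 counts per library. With library sizes alone the log2 fold changes were 2.34 for AXL, -0.68 for MERTK, -0.64 for TYRO3, -0.49 for GAS6 and -0.97 for PROS1, 9758 genes were called against 5522, 8 pathway genes rose and 76 fell, and 19 other receptor tyrosine kinases were called. In that setting 13 named genes turned: RHBDF2 (-0.070), GRB2 (-0.15), PIK3CD (-0.15), SRC (-0.043), IFNAR2 (-0.063), ABCA1 (-0.091), THBS1 (-0.0038), CALR (-0.13), NFKBIA (-0.21), FURIN (-0.31), ABCA7 (-0.34), RHOG (-0.30) and SIRPA (-0.29). PROS1 was -0.30 with the GC correction, and its cause was not tested. The filter of 5 CPM in 3 libraries left out MERTK, TYRO3 and PROS1 and called 7 other kinases, since fewer genes were tested. AXL passed that filter through its siNPM1c libraries alone, so its log2 fold change there (2.80) is no check on the difference. Leaving out each library gave 2.65 to 3.03 for AXL, -0.40 to -0.075 for MERTK, -0.32 to -0.03 for TYRO3, -0.10 to 0.14 for GAS6, -0.60 to -0.42 for PROS1, 4631 to 5254 genes called, 37 to 44 pathway genes higher and 21 to 24 lower, and 10 to 12 other kinases. DESeq2 called 3768 genes. Over 59 named genes and all alternatives, 937 of 991 values kept direction and call. With the replicate block AXL was 2.81 and 5586 genes were called. Same-numbered libraries had correlations of deviations of 0.019, 0.023 and 0.038, each the highest for its number but too low to pair the samples.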
